A study of Mus musculus with 4 samples.

Results

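The tripartite motif (Trim) genes described here are 9 mouse genes of innate antiviral defence: Trim14, Trim21, Trim25, Trim26, Trim30a, Trim30d, Trim34a, Trim34b and Trim56. They were chosen by name from a count table of 24148 genes that holds 66 Trim genes in all, with the comparison of lipopolysaccharide (LPS) with control already known. Their LPS response is therefore given as a description, with no test. RNA sequencing was done on cultured primary microglia of the mouse, the brain's own macrophages, which were shaken loose from mixed glial cultures and plated again. The groups were 2 control libraries (replicates 1 and 2) and 2 libraries of cells given LPS, the endotoxin of Gram-negative bacteria, at 10 ng/ml for 4 h (replicates 1 and 2). All 4 libraries were depleted of ribosomal RNA, made with a directional kit and read as paired ends. The labels give no strain, age or sex of the mice and give no sign of whether the replicates are separate cultures, so the p-values measure the spread between these libraries, which may be technical. RNA was taken from whole cultures, in which a change in the number of cells of a type and a change in RNA per cell cannot be told apart.

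Trim proteins share an amino-terminal module of a RING finger, B-box domains and a coiled coil. The RING finger recruits ubiquitin-conjugating enzymes, so most family members act as ubiquitin ligases, and many attach or shape the ubiquitin chains that switch RNA and DNA sensing pathways on or off. Several Trim genes are themselves induced by interferon, through transcription factors that bind the interferon-stimulated response element in their promoters. LPS engages Toll-like receptor 4, whose TRIF branch leads to interferon beta. The label of ubiquitin ligase is not apt for the whole list, since Trim14 lacks a RING finger and is known as a scaffold.

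The promoter stretches that hold a match to the core of the interferon-stimulated response element are shown first, because this core separates the members from each other. RefSeq promoter windows (build GRCm38, 250 bases before to 50 after an annotated start) were matched by symbol for 8 of the 9 members, giving 9 windows, with 2 for Trim30a and none for Trim14. The sequences read 5′ to 3′ on the strand of the gene, capitals mark the response element core, and at most 30 transcribed bases are included. The core searched was GAAANNGAAA on both strands. In the windows of Trim21 and Trim26 it occurred as a pair of overlapping matches, and in the others as a single match on the strand opposite to the gene.
Trim21, chr7:102565453-102565494, minus strand: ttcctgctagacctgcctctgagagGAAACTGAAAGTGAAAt
Trim26, chr17:36836961-36837026, plus strand: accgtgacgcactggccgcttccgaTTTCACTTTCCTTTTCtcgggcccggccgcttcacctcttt
Trim30a, outer start, chr7:104465195-104465254, minus strand: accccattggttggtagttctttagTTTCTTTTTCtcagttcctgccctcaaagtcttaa
Trim30d, chr7:104507856-104507915, minus strand: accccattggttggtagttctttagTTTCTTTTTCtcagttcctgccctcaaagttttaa
Trim30a, inner start, chr7:104446096-104446148, minus strand: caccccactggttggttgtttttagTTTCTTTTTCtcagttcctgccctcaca
Trim34a, chr7:104244407-104244486, plus strand: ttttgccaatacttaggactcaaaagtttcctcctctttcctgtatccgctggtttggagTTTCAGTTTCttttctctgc

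The stretch of Trim34b at the same distance from its start is shown for comparison with its paralog Trim34a. Capitals mark an AP-1 match (TGANTCA) there, since the window of Trim34b held no response element core.
Trim34b, chr7:104329421-104329500, plus strand: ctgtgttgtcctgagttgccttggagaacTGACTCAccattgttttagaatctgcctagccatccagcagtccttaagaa

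The response element core was found in 5 of the 8 members with a window, namely Trim21, Trim26, Trim30a, Trim30d and Trim34a, and was not found in the windows of Trim25, Trim34b and Trim56. By comparison, 3.44% of all 32851 promoter windows held it, as did 3.80% of the 7529 tested genes with a window and 15.1% of the 497 such genes that were called higher after LPS. In Trim21 the matches lay 13 to 22 and 19 to 28 bases after the start, and in Trim34a 10 to 19 bases after it. In Trim26 they lay farther upstream, at positions -160 to -151 and -154 to -145 relative to the start.

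The upstream stretches of Trim30a (outer start) and Trim30d, shown above, differed at 1 of 60 bases, C56T when positions are counted from 1 at the 5′ end and the base of Trim30a is given first. Over the full windows these 2 promoters were 90.8% identical. The paralogous pair Trim34a and Trim34b shared 48.8% of bases in an alignment of their windows, with gaps counted as differences. The stretches of the Trim30 pair thus share the response element core, whereas those of the Trim34 pair do not.

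Other motifs were fewer among the members. AP-1 matches were found in the windows of Trim30a (outer start, 43 to 49 bases after it), Trim30d (38 to 44 bases after it) and Trim34b (positions -21 to -15), against 7.81% of all windows. The core of Ets factors such as PU.1, the factor that defines myeloid cells (GAGGAA), was found in Trim21, Trim25, Trim34a and Trim56, against 28.3% of all windows, and in Trim21 it overlapped the response element core. The gamma-activated site (TTCNNNGAA, 8.30% of windows) and the kappa B site (8.46%) were not found in any window of the members. A match describes the letters of these windows and was not tested for factor binding, and a missing match says nothing about sequence outside them.

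**Figure D1:**
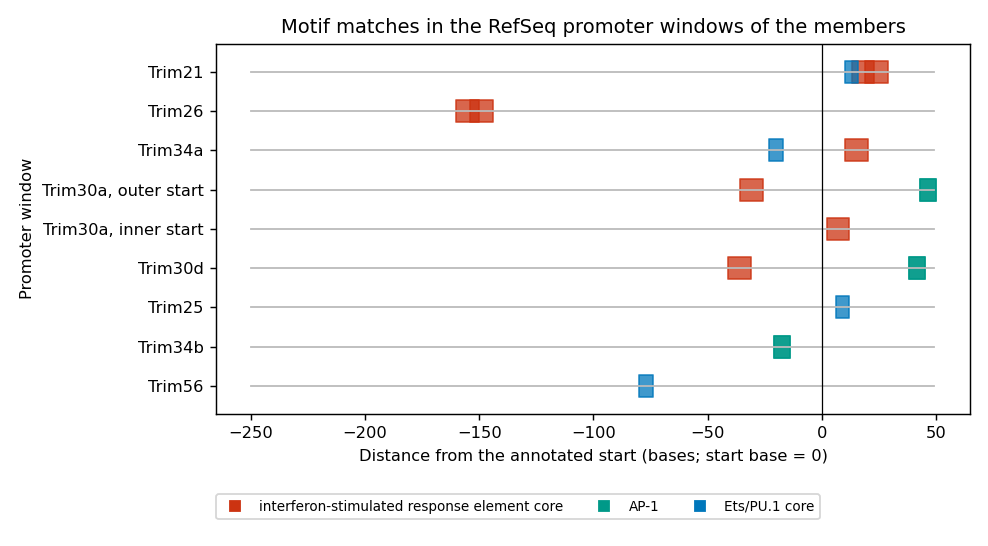
Motif matches (coloured boxes) in the 9 RefSeq promoter windows of the members, by distance in bases from the annotated start (x axis, vertical line at the start base), 1 window per row. Response element cores (red) lie in 6 windows of 5 genes, close to the start except in Trim26, and the rows of Trim25, Trim34b and Trim56 hold none.

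Total counts were 3617176 and 4080568 in the control libraries and 5095630 and 4592474 in the LPS libraries, with 17442 to 19597 genes detected. The unit CPM stands for counts relative to a common library size, scaled with the trimmed mean of M-values (TMM). Of the 18 microglia markers, 16 passed the count minimum and their summed CPM was 5015 and 4409 in control and 3838 and 3332 in LPS (replicates 1 and 2), while Itgam, with 2 RefSeq accessions, had no count. Summed astrocyte markers were 121 and 323 CPM in control and 137 and 453 CPM in LPS. Summed oligodendrocyte lineage markers were 425 and 69.9 CPM in control and 438 and 61.6 CPM in LPS. These 2 lists moved most with the replicate number, and every other list also kept its order of replicates in both groups. The other lists varied less between libraries, with fibroblast and vascular markers at 38.4 to 82.7 CPM (Pdgfrb and Pecam1 at 0 counts), neuron markers at 60.6 to 73.2 CPM, and lymphocyte and neutrophil markers at 17.8 to 23.9 CPM (S100a9 at 0 counts). edgeR's quasi-likelihood test called no tested marker of any list, higher or lower.

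Of the 9 members, 7 reached the count minimum (a mean of 10 counts over the libraries) and entered the edgeR fit of 9548 genes. All 7 were among the genes called higher in LPS, beside 6.55% of all tested genes called higher and 1.79% called lower, and both LPS libraries lay above both controls for each of the 7, as for 24.7% of tested genes. Nothing is read from these counts, since the members were selected on this contrast. Among the 7, Trim30d passed the count minimum through its LPS libraries alone. The median log2 fold change of the 7 was 2.97, and stayed at 2.97 with Trim30d at its lower bound, beside -0.046 over all genes tested. Trim21 and Trim26 were at or near 0 counts and were not tested.

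Trim25, the ubiquitin ligase known for attaching chains to the RNA sensor RIG-I, lies on chromosome 11 (GRCm38, 88999403 to 89020294). It had 28.1 and 22.1 CPM in the control libraries and 197 and 160 CPM in the LPS libraries (replicates 1 and 2). Both LPS values were far above both control values and the spread within each group was small. The group means were 25.1 ± 4.23 CPM and 179 ± 26.0 CPM (SD, n = 2 each), a log2 fold change of 2.84 ± 0.25 (standard error), or 7.14-fold. No stretch of 101 bases, the read length, was shared with another GENCODE gene.

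Trim14, the RING-less scaffold reported at the mitochondrial adaptor Mavs and at the DNA sensor cGAS, lies on chromosome 4 (46505072 to 46536150). It had 24.4 and 19.0 CPM in control and 168 and 84.8 CPM in LPS. The groups did not overlap, but LPS replicate 1 was 1.98 times as high as LPS replicate 2. The means were 21.7 ± 3.80 CPM and 126 ± 58.6 CPM (SD, n = 2 each), a log2 fold change of 2.54 ± 0.39, or 5.83-fold. Of its 101-base stretches 4.97% also occur in Gm16731, a gene annotated across its start on the opposite strand.

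Trim56, a ligase linked to the cGAS and STING pathway of DNA sensing, lies on chromosome 5 (137111286 to 137116462). It had 13 and 53 counts (3.44 and 10.3 CPM) in control and 290 and 190 counts (69.8 and 45.9 CPM) in LPS. Control replicate 2 was 2.98 times as high as control replicate 1, yet both lay well below the LPS libraries. The means were 6.86 ± 4.83 CPM and 57.8 ± 16.9 CPM (SD, n = 2 each), a log2 fold change of 3.04 ± 0.53, or 8.21-fold. Without control replicate 2 the log2 fold change was 4.03, and without LPS replicate 1 it was 2.71 and no longer passed the threshold.

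Trim30a, known for restraining Toll-like receptor signalling to NF-kB by targeting the adaptors Tab2 and Tab3, lies on chromosome 7 (104409025 to 104465193). It had 22.0 and 24.8 CPM in control and 479 and 466 CPM in LPS. Replicates of both groups lay close together, and the LPS libraries held the highest CPM of any member. The means were 23.4 ± 1.99 CPM and 472 ± 9.20 CPM (SD, n = 2 each), a log2 fold change of 4.33 ± 0.21, or 20.2-fold. Of its 101-base stretches 4.77% also occur in Trim30d.

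Trim30d, its less studied neighbour (chromosome 7, 104470014 to 104507853), was at 0 counts in each control library, against 33 and 50 counts (7.94 and 12.1 CPM) in the LPS libraries. It was thus seen in the LPS libraries alone, at a depth where 0 counts allow up to 0.795 and 0.581 CPM in control replicates 1 and 2. Set against a floor of 3 counts over the control group, its LPS level was at least 29.8-fold higher. This bound was 17.2-fold without control replicate 1, 12.6-fold without control replicate 2, 36.0-fold without LPS replicate 1 and 23.7-fold without LPS replicate 2. All of its counts fell on 1 of its 2 RefSeq accessions. Of the 101-base stretches of that transcript 9.70% also occur in Trim30a, which had 1991 and 1928 counts in LPS, and whether reads of Trim30a are among those counted for Trim30d was not tested.

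The paralogs Trim34a (chromosome 7, 104244448 to 104262244) and Trim34b (104329471 to 104336617) are mouse relatives of human TRIM34, an interferon-induced gene. Trim34a had 11 and 54 counts (2.91 and 10.5 CPM) in control and 201 and 247 counts (48.3 and 59.7 CPM) in LPS. Control replicate 2 was 3.59 times as high as control replicate 1, and both stayed below the LPS libraries. The means were 6.69 ± 5.34 CPM and 54.0 ± 8.02 CPM (SD, n = 2 each), a log2 fold change of 2.97 ± 0.56, or 7.84-fold. Leaving out control replicate 1 gave 2.36 and leaving out control replicate 2 gave 4.18, and the change no longer passed the threshold without LPS replicate 1 (3.12) or LPS replicate 2 (2.81).

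Trim34b had 4.50 and 3.49 CPM in control and 25.5 and 26.3 CPM in LPS. Its replicates lay closer together than those of Trim34a in both groups, and the groups did not overlap. The means were 3.99 ± 0.718 CPM and 25.9 ± 0.596 CPM (SD, n = 2 each), a log2 fold change of 2.70 ± 0.30, or 6.50-fold. Of the 2478 stretches of 101 bases in the Trim34a transcript, 555 also occur in Trim34b and 481 in the antisense gene Gm47248, and 32.1% of the stretches of Trim34b occur in Trim34a. How such reads were assigned is not given in the sources used here, so the division of counts between these paralogs is uncertain.

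The differences between the control libraries of Trim34a and Trim56 and between the LPS libraries of Trim14 had no common direction. Control replicate 2 was the higher one for Trim34a and Trim56, as it was for the summed astrocyte markers. The same held for the fibroblast and vascular, neuron, and lymphocyte and neutrophil lists. In LPS replicates 1 and 2 the summed astrocyte markers were at 137 and 453 CPM. There Trim34a went the same way (48.3 and 59.7 CPM) and Trim56 the other way (69.8 and 45.9 CPM). LPS replicate 1 was the higher one for Trim14, as it was for the summed oligodendrocyte lineage markers and the summed microglia markers (3838 and 3332 CPM). The part of other cell types in these values was not tested. Within replicate number 1 the ratio of LPS to control was 16.6 for Trim34a, 20.3 for Trim56 and 6.88 for Trim14, and within number 2 it was 5.71, 4.47 and 4.47. The ratios of Trim25 (7.03 and 7.27), Trim30a (21.8 and 18.8) and Trim34b (5.66 and 7.55) differed less between the numbers. The labels do not say that a number marks a shared culture, so these ratios describe the libraries and are not taken as pairs.

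**Figure D2:**
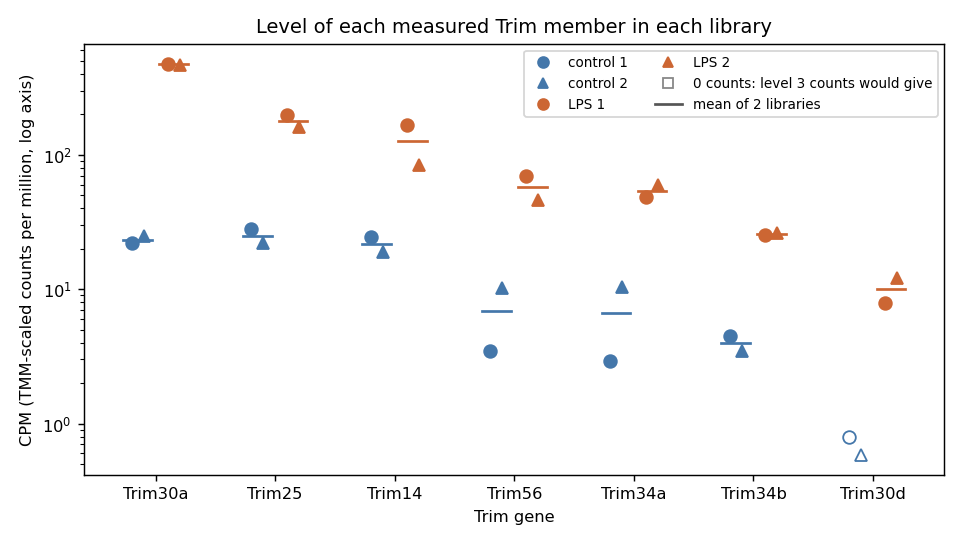
CPM (log axis) of the 7 members above the count minimum in each library, with control in blue, LPS in orange, circles for replicate 1, triangles for replicate 2 and a line at each mean (n = 2). All LPS points lie above all control points of the same gene, and Trim30d has open control symbols at the level that 3 counts would give, because both controls held 0 counts.

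Per kilobase of transcript, a scale on which genes can be compared, the order of the levels changed with LPS. In control the mean levels were 15.2 CPM per kilobase for Trim14, 6.20 for Trim30a, 4.49 for Trim25, 2.59 for Trim34a, 2.19 for Trim34b and 0.739 for Trim56. Trim34a, at 1.13 and 4.06 in the 2 control libraries, could not be placed apart from Trim25 (5.02 and 3.95) or Trim34b (2.46 and 1.91). In LPS the mean levels were 125 CPM per kilobase for Trim30a, 88.4 for Trim14, 32.0 for Trim25, 20.95 for Trim34a, 14.2 for Trim34b and 6.23 for Trim56. Trim14, first in control, was second in LPS, where its replicates (117 and 59.4) reached close to those of Trim30a (127 and 124). Trim30d was lowest of the 7 in LPS at 5.26 CPM per kilobase of the transcript that carried its counts, and its libraries (4.17 and 6.35) overlapped those of Trim56 (7.52 and 4.95).

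Trim21, the cytosolic antibody receptor and ligase that targets antibody-coated virus (chromosome 7, 102557920 to 102565482), had 0 counts in 3 libraries and 1 count in LPS replicate 2. Trim26, a ligase reported to act on Irf3 (chromosome 17, 36837123 to 36859398), had 0 counts in all 4 libraries, which allows up to 0.795, 0.581, 0.722 and 0.725 CPM in control replicates 1 and 2 and LPS replicates 1 and 2. These limits cover counting error only. No comparison could be made for these members.

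Both genes are listed under more than 1 accession, Trim21 under 2 and Trim26 under 3. The 2 Trim21 transcripts share 97.9% and 93.8% of their 101-base stretches with each other, and the 2 Trim26 transcripts matched to GENCODE share 95.8% and 96.1%. For Trim30d, the transcript that carried the counts shares 68.1% of its stretches with the other. Low counts went with the number of accessions across the family: 23 of the 44 Trim genes with 1 accession passed the count minimum, but only 1 of the 22 with more, which was Trim30d. Over all named genes 46.8% of 19106 with 1 accession and 11.7% of 4801 with more passed it. The levels of Trim21 and Trim26 are therefore uncertain, and the part of the counting in them was not tested.

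**Figure D3:**
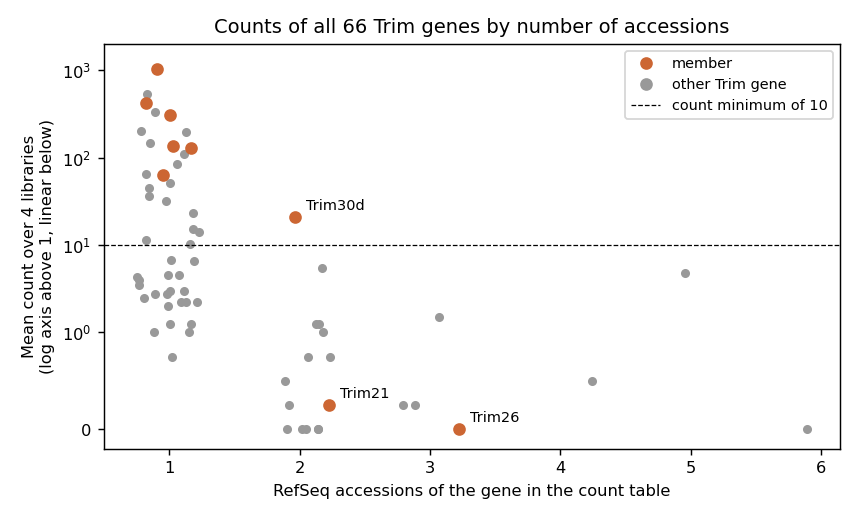
Mean count over the 4 libraries (y axis, logarithmic above 1 and linear below) of the 66 Trim genes by their number of RefSeq accessions in the table (x axis, points spread sideways for visibility), with members in orange and the count minimum of 10 as a dashed line. Trim30d is the 1 gene with more than 1 accession above the line, and Trim21 and Trim26 lie at or near 0.

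Of the 57 other Trim genes, 17 were tested and edgeR called 0 higher and 0 lower, beside 6.55% and 1.79% of all tested genes. With 17 genes these counts lie near the shares over all genes, so nothing is read from them. At an unadjusted p of 0.05, 2 passed (Trim30b and Trim65), and DESeq2 and limma-trend also called 0. Their median log2 fold change was -0.24, with 3 above 0 and 14 below. These genes were left out of the members with the results known, so the contrast with the members is a description. Another 40 were not tested, of which 19 had several accessions.

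Trim30b, a further relative of Trim30a, was counted 6 and 8 times in control against 25 and 17 times in LPS. Trim30b passed the count minimum through its LPS libraries alone, so nothing is read from its p-values. Its LPS libraries lay above both controls, at a log2 fold change of 1.67 ± 0.45 (adjusted p = 0.098, edgeR; 0.0081 to 0.41 over its alternatives). For Trim65, counts of 77 and 55 in control stood against 32 and 16 in LPS, a log2 fold change of -1.41 ± 0.50 (adjusted p = 0.19, edgeR; 2.9e-04 to 0.49 over its alternatives). Next by size were Trim68 (-0.89 ± 0.47) and Trim16 (-0.68 ± 0.36) below 0, and Trim6 (0.64 ± 0.57) and Trim35 (0.23 ± 0.24) above it, none of them called. Trim6 was at 1.39 without control replicate 2 and at 0.19 without control replicate 1, and at 0.17 with total-count scaling. Like Trim30b, Trim6 reached the count minimum only with its LPS libraries. The sign of Trim35 turned with total-count scaling (-0.18) and with quantile normalization (-0.21).

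**Figure D4:**
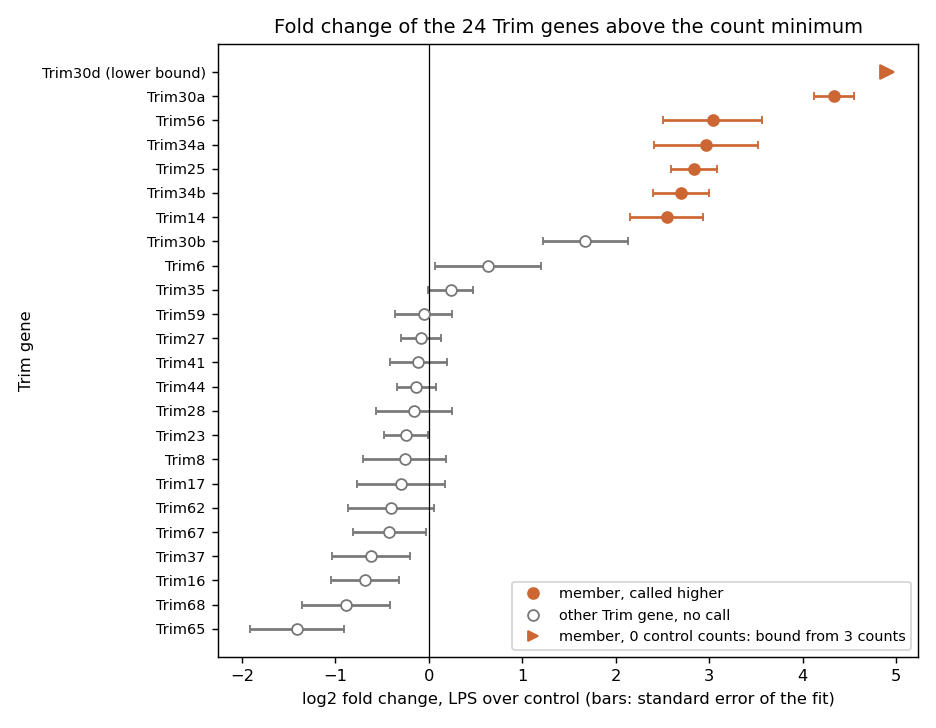
Log2 fold change of LPS over control (x axis) of the 24 Trim genes above the count minimum, with bars for the standard error of the edgeR fit, filled orange for members and open grey for other Trim genes. The 6 members with control counts lie between 2.54 and 4.33, Trim30d is an arrowhead at its lower bound, and the other Trim genes range from -1.41 to 1.67.

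Of the members, 4 belong to a run of 10 Trim genes over 289 kb of chromosome 7, from Trim6 to Trim30d. The table held 8 of these 10, and Trim5 and Trim30c were not analysed here. Trim34a, Trim34b, Trim30a and Trim30d showed the values above, with mean LPS levels from 10.0 to 472 CPM. At the edge of the run, Trim6 was counted 4 and 13 times in control and 14 and 10 times in LPS, with overlapping groups. Between the members, Trim12a was counted at most once per library, and Trim12c, with 2 accessions, had 1 count in LPS replicate 1 alone. Genes with high and with very low counts thus stood next to each other in the cluster.

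**Figure D5:**
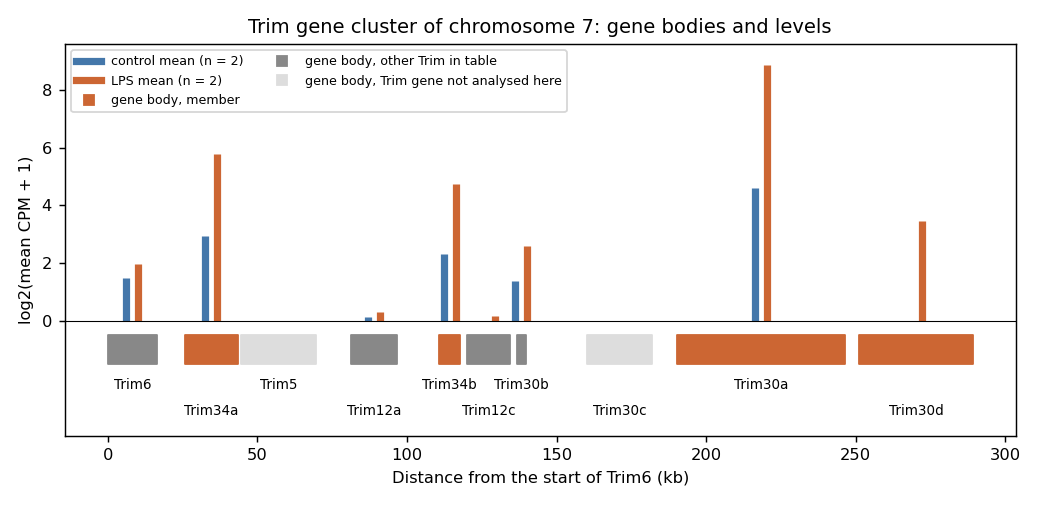
Gene bodies of the Trim genes in the cluster of chromosome 7 (boxes, to scale, in kb from the start of Trim6) and, above each gene in the table, log2(mean CPM + 1) in control (blue) and LPS (orange), n = 2 each. The tallest LPS bar belongs to Trim30a, and Trim6, Trim12a and Trim12c between or beside the members stay low in both groups. Trim30b, also no member, is higher in LPS than in control (means of 5.06 and 1.57 CPM, not called).

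Genes that act with these Trim proteins were taken from 3 lists. Of 26 partners and targets, 16 were tested, 8 were called higher and 0 lower, beside 6.55% of all tested genes called higher, with a median log2 fold change of 1.24 beside -0.046 over all genes. The other 10, which include Mavs, Traf3, Irf3, Irf7 and Sting1, were under the count minimum, each with more than 1 accession. The RNA sensors that Trim25 and its relatives act on rose: Ddx58 (RIG-I) by 4.10 ± 0.38 on the log2 scale (adjusted p = 0.0033, edgeR), and its regulator Dhx58 by 4.21 ± 0.37 (adjusted p = 0.0026, edgeR). Ifih1 (MDA5), counted 1 and 0 times in control but 32 and 38 times in LPS, passed the count minimum through its LPS libraries alone. Nothing is read from its call (adjusted p = 0.011, edgeR), which is among the 8. Its ratio from counts was 75.4 (95% interval 13.1 to 3021, counting error only). This ratio was 31.9 (5.53 to 1276) without control replicate 2, and at least 14.5-fold higher without control replicate 1, which held its 1 control count.

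The inflammasome sensor Nlrp3 rose by 6.01 ± 0.57 (adjusted p = 0.0034, edgeR; 6.68 without control replicate 1). The kinase Ikbke, which activates interferon regulatory factors, rose by 3.30 ± 0.30 (adjusted p = 0.0030, edgeR). The DNA sensor Cgas rose by 1.78 ± 0.38 (adjusted p = 0.049, edgeR; 1.3e-04 to 0.29 over its alternatives). That call was lost when any 1 of the 4 libraries was left out (log2 fold changes 1.43 to 2.05) and with total-count scaling (1.33, adjusted p = 0.097). Both other called genes, the Trim30a target Tab2 (1.27 ± 0.21) and the kinase Tbk1 (1.09 ± 0.20), showed smaller changes. Their adjusted p-values were 0.023 and 0.032 (edgeR). Neither was called with total-count scaling, with quantile normalization, or without LPS replicate 1 or LPS replicate 2. Tab3, the other Trim30a target and named after its values were seen, was at 0.031 ± 0.24, with overlapping groups and no call. The best measured genes without a call were the ATPase Vcp (0.29 ± 0.19), the deubiquitinase Usp15 (0.38 ± 0.20) and the transcription factor Irf8 (0.42 ± 0.37). Vcp and Usp15 fell on the other side of 0 with total-count scaling (-0.13 and -0.067) and quantile normalization (-0.42 and -0.055), and Irf8 did so without control replicate 2 (-0.024).

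Of 24 genes of ubiquitin and Isg15 conjugation, 18 were tested, and 6 were called higher and 0 lower, beside 6.55% and 1.79% of all tested genes. Their median log2 fold change was 0.74, beside -0.046 over all genes. Those called are mostly the Isg15 system, in which a ubiquitin-like protein is attached by its own enzymes. Isg15 itself went from 12 and 18 counts in control to 4252 and 2470 in LPS, a rise of 7.91 ± 0.41 (adjusted p = 5.1e-04, edgeR). Its protease Usp18 rose by 6.20 ± 0.22 (adjusted p = 2.9e-04, edgeR) and its mouse ligase Herc6 by 5.13 ± 0.24 (adjusted p = 3.9e-04, edgeR). Its activating enzyme Uba7 rose by 3.01 ± 0.24 (adjusted p = 0.0021, edgeR) and its conjugating enzyme Ube2l6 by 2.28 ± 0.25 (adjusted p = 0.0056, edgeR). These 5 genes cover activation, conjugation, ligation and removal of Isg15.

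The sixth, Rnf31, the catalytic subunit of the linear ubiquitin assembly complex, rose by 2.26 ± 0.34 (adjusted p = 0.016, edgeR). It was no longer called without LPS replicate 1 (2.06, adjusted p = 0.092; 2.3e-07 to 0.092 over its alternatives). The ubiquitin-conjugating enzymes that serve RING ligases such as the Trim proteins were not called: Ube2d3 at 0.82 ± 0.18 (adjusted p = 0.053, edgeR), Ube2n at 0.51 ± 0.29 and Ube2d2a at 0.28 ± 0.26. Ube2d3 was called higher with DESeq2, limma-trend, no filter and a minimum mean of 50 (0.72 to 0.93), but was at 0.38 with total-count scaling and 0.069 with quantile normalization, without a call. Ube2d2a fell below 0 with total-count scaling (-0.14) and quantile normalization (-0.19).

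Of 14 interferon signalling genes, 8 were tested, and 5 were called higher and 0 lower, beside 6.55% and 1.79% of all tested genes. The median log2 fold change of these 8 was 2.27, beside -0.046 over all genes. Among the 5 called, Ifnb1 and Irf1 passed the count minimum through their LPS libraries alone, so nothing is read from their calls. Ifnb1, which encodes interferon beta, was counted 0 and 1 times in control and 57 times in each LPS library (adjusted p = 0.0043, edgeR), a ratio from counts of 123 (95% interval 21.6 to 4893). This ratio was 70.9 (12.5 to 2826) without control replicate 1, and at least 17.3-fold higher without control replicate 2. The signal transducer Stat2 rose by 4.01 ± 0.30 (adjusted p = 0.0016, edgeR) and the feedback inhibitor Socs3 by 4.51 ± 0.37 (adjusted p = 0.0023, edgeR). The other Socs gene of the list, Socs1, had 4 counts in LPS replicate 1 alone and was not tested.

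Irf1, listed under 3 accessions and therefore uncertain in level, was counted 3 and 2 times in control and 21 and 19 times in LPS, a rise of 3.03 ± 0.55 (adjusted p = 0.028, edgeR; 2.7e-04 to 0.12 over its alternatives). Its call was lost without control replicate 2, where the ratio from counts was 6.07 (1.93 to 30.7), and without LPS replicate 1 (2.96) or 2 (3.09). Irf2 rose by 1.51 ± 0.24 (adjusted p = 0.018, edgeR; 1.1e-08 to 0.11 over its alternatives), a call lost without LPS replicate 1 (1.28). The receptor chains Ifnar1 (0.61 ± 0.26) and Ifnar2 (1.37 ± 0.30) and the kinase Jak1 (0.71 ± 0.20) were not called by edgeR. Ifnar2 was called higher with DESeq2 (1.39) and with no filter (1.47).

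The genes outside the list whose profile over the 4 libraries was most like the mean profile of the 7 measured members were Zup1, Spryd7, Procr, Plaur and H2-T24. Likeness was the root mean square distance between centred log2 CPM profiles, which was 0.053, 0.064, 0.074, 0.077 and 0.085 for these genes in that order. The members themselves lay farther from their mean, from 0.334 for Trim25 to 0.660 for Trim30d. All 5 were among the genes called higher, with log2 fold changes of 3.19 to 3.38. They were picked from 9548 genes over 4 libraries, so that such small distances describe these libraries only.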

How the data were processed

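The values deposited by the authors are counts per RefSeq accession (32915 accessions, 4 libraries). Although the name of the table has the word normalized, its values are whole numbers with differing totals and were treated as counts. Tools listed in the submitters' processing notes are HTSeq 0.6.1, TopHat2 2.0.10, Trimmomatic 0.33, CASAVA 1.8.2 and Cufflinks 2.2.1, with build mm10. How HTSeq or another tool counted, with which strand setting and annotation, is not given in the sources used here. Counts were summed per symbol (32487 accessions matched in RefSeq, 187 in GENCODE release 21, and 241 in neither). One unnamed non-coding accession held 20.0% to 24.8% of counts and stayed in the library sizes. The LPS and control libraries were compared with the quasi-likelihood test of edgeR 4.0.16 under R 4.3.3 (TMM factors 0.820 to 1.28, mean count of at least 10, two-sided, Benjamini-Hochberg at 0.05, common biological coefficient of variation 0.283). A standard error is the log2 fold change divided by the square root of F. A group of 1 to 3 counts gives a ratio with its 95% Clopper-Pearson interval, and a group of 0 counts gives a bound from 3 counts over the group. Transcript lengths and 101-base stretches came from GENCODE transcripts. Protein sequences were not used here.

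The members and the gene lists were chosen with earlier results of these data known. Named were all 9 members; called other Trim genes and the 3 with the largest change in each direction; of each pathway list up to 6 called genes and up to 3 uncalled genes of highest level; and the 5 genes of most similar profile. Tab2 and Tbk1 were added because they complete the called partners. Alternatives were total-count and relative-log-expression scaling, quantile normalization, DESeq2 1.42.0, limma-trend (limma 3.58.1), no filter, a minimum mean of 50, the replicate block, the highest accession only, and each library left out. The test was run on simulated data first. There it recovered 4% of 50 genes set to a log2 size of 1 and 68% of 50 genes set to 2. At sizes of 3 and 5 it recovered 100%. A gene without a call at a size of 2 or less is therefore not shown to be unchanged.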

Additional observations from a re-analysis of the deposited data

How the results depend on the processing

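Of 90 fold changes of members recomputed under 13 alternatives, 87 kept their direction and side of the threshold and 3 kept their direction only, and none turned. Nothing is read from these numbers, since the members were selected on this contrast in the same libraries. The direction of Trim30d, at 0 counts in both controls, could not turn. The members called numbered 7, but 6 with a minimum mean of 50, where Trim30d was not tested, and 5 to 7 with 1 library left out. Over all genes 625 were called higher and 171 lower; total-count scaling gave 469 and 489, and quantile normalization 525 and 326. Over all genes the median log2 change was -0.48 with total-count scaling and -0.14 with quantile normalization, against -0.046. With 1 library left out, 335 to 629 genes were called higher and 33 to 260 lower, with 33 without LPS replicate 1 and 39 without LPS replicate 2. Partners called higher were 5 with total-count scaling and 5 to 7 with 1 library left out, against 8. Interferon signalling genes called higher were 3 with a minimum mean of 50 and 3 to 5 with 1 library left out, against 5. Ubiquitin and Isg15 genes called higher were 5 to 6 with 1 library left out, against 6. Uncalled genes that turned were Trim35 (-0.18 with total-count scaling, -0.21 with quantile normalization, -0.015 to 0.48 with 1 library left out), Vcp (-0.13 and -0.42), Usp15 (-0.067 and -0.055), Ube2d2a (-0.14 and -0.19) and Irf8 (-0.024 to 0.99 with 1 library left out). The cause of these differences was not tested.

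Fitted with a replicate block, edgeR called 1676 genes higher and 1258 lower, 13 partners, 13 ubiquitin and Isg15 genes and 8 interferon signalling genes higher. The replicate block called 1 other Trim gene higher (Trim30b, 1.64) and 1 lower (Trim65, -1.42), and called 7 members. Nothing is read from the call of Trim30b, which passed the count minimum through its LPS libraries alone. Of the named pathway genes that edgeR did not call with the same filter and scaling but no block, it called Usp15, Irf8, Ube2d3, Ube2n, Ifnar1, Ifnar2 and Jak1 higher. Deviations of same-numbered libraries from their group means correlated at 0.656 across genes, but with only 2 pairs, and the labels do not say that a number marks a shared culture, so the numbers are not taken as pairs.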
